A study of Mus musculus with 19 samples.

Results

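T and NK cell genes were examined in RNA from dorsal root ganglia of mice, which hold the cell bodies of the sensory neurons that serve the limbs and trunk. The genes were Cd3d, Cd3e, Cd3g, Trbc2, Lck, Cd4, Cd8a, Cd8b1, Nkg7 and Klrb1c, chosen by name as familiar markers of T lymphocytes and natural killer (NK) cells, and all 10 were among the 36682 genes of the deposited table. All 10 passed the filter on low counts and were among the 22778 genes tested. Every mouse was male and homozygous for MaFIA (macrophage Fas-induced apoptosis), a transgene that makes macrophages and other myeloid cells that express it sensitive to AP20187, a drug that joins the transgene's proteins into pairs and starts cell death. Control mice carried the transgene as well. The 4 groups were naive mice given vehicle (n = 5), naive mice given AP20187 (n = 4), mice with destabilization of the medial meniscus (DMM), a surgical model of knee osteoarthritis, given vehicle (n = 5), and DMM mice given AP20187 (n = 5). Injections were intraperitoneal and were made daily for 5 days, starting 8 weeks after surgery in the DMM mice, and naive mice were matched for age. For each mouse 1 library was made from its L3, L4 and L5 ganglia combined, taken in DMM mice from the side that had surgery.

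A T cell recognizes its target through the T cell receptor, in which the antigen-binding chains sit in the membrane beside the CD3 chains that carry the signal inward, and the kinase Lck starts that signal. CD4 marks helper T cells and CD8 marks cytotoxic T cells. NK cells have no rearranged antigen receptor and read their targets through receptors such as those of the Klrb1 family, and both NK cells and cytotoxic T cells kill by releasing granules. Several of these genes are not exclusive to one cell type: in mice some dendritic cells carry CD8α or CD4, and Nkg7 is a protein of granules.

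Library totals ran from 60984830 to 74691396 counts. Levels are given in CPM, counts scaled to a common library size after TMM normalization. Counts of 3 in a library, taken as the floor of detection, corresponded to 0.0400 to 0.0519 CPM. The floors cover counting error only, since reads carried no molecular identifiers and are not independent molecules. FPKM, which also divides by gene length, is used where different genes are set against each other.

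The members sit at a few places in the genome, with coordinates as the deposited table lists them for build GRCm39. Cd3g (chromosome 9, 44880870 to 44891729, minus strand), Cd3d (44893084 to 44898637, plus strand) and Cd3e (44910038 to 44920920, minus strand) form a cluster of 40051 bp. Cd3g and Cd3d are 1354 bp apart and lie on opposite strands. Cd8b1 (chromosome 6, 71299772 to 71314478) and Cd8a (71350411 to 71356153) lie 35932 bp apart on the plus strand. Chromosome 6 also holds Trbc2 (41523664 to 41525286, plus strand), Cd4 (124841655 to 124865184, minus strand) and Klrb1c (128755448 to 128766178, minus strand). Lck is on chromosome 4 (129442137 to 129467434, minus strand) and Nkg7 on chromosome 7 (43086497 to 43087673, plus strand). Cd3e overlaps the predicted genes Gm48719, on the other strand, and Gm48720, on its own strand. Lck contains Mir8119 on its own strand. Trbc2 has a near-identical copy in Trbc1, and Klrb1c belongs to a family of similar genes, so the split of reads among those copies is uncertain.

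Promoter sequences are shown for Nkg7, the member that passed the test of AP20187 against vehicle. They are also shown for Klrb1c, the other member named for NK cells, and for Cd3e, a chain of the T cell receptor complex. A RefSeq promoter was found for 7 of the 10 members. Each sequence is the 250 bases before the start of the gene, written 5′ to 3′ on the gene's strand, in build GRCm38.p6, at chr7:43436888-43437137 (plus) for Nkg7, chr6:128788642-128788891 (minus) for Klrb1c and chr9:45009612-45009861 (minus) for Cd3e. Capitals mark matches on either strand to motifs of transcription factor families active in lymphocytes. For the ETS family the letters searched were GGAAGT. For the RUNX family they were TGTGGT, and for GATA factors they were AGATAA. For T-box factors they were GGTGTGA. No matches to different motifs overlapped in these windows.
Nkg7: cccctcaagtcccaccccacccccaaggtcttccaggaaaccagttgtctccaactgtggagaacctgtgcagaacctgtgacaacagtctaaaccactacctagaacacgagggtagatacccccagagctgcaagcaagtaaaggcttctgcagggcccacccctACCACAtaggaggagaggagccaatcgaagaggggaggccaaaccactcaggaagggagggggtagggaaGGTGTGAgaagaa
Klrb1c: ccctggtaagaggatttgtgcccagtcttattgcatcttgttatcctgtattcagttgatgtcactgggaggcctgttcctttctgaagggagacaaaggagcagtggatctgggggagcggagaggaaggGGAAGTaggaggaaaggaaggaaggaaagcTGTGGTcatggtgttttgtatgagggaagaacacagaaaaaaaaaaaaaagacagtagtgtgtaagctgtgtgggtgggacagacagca
Cd3e: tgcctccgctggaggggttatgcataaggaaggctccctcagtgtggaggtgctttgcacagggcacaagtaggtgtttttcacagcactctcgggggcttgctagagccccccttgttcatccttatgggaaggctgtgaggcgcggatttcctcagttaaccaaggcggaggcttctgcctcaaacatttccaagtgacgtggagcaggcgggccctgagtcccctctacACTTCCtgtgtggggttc
The Nkg7 window held a RUNX match on the opposite strand and a T-box match 13 to 7 bases before the start. The Klrb1c window held an ETS match and a RUNX match, and the Cd3e window held an ETS match on the opposite strand. Among 32851 promoter windows of the same length, 19.7% held the ETS letters, 14.05% the RUNX letters, 9.99% the GATA letters and 3.33% the T-box letters. The data here contain no measurement of factor binding, and a match describes the letters only.

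The members were scarce transcripts in these ganglia. With vehicle in naive mice, the 9 members other than Nkg7 summed to 10.6 ± 5.66 CPM (SD, n = 5), and in DMM mice to 13.95 ± 9.30 (SD, n = 5). On the per-length scale in naive mice given vehicle, Nkg7 was the most abundant at 1.81 ± 1.34 FPKM (SD, n = 5), followed by Lck at 1.01 ± 0.417, Trbc2 at 0.999 ± 1.02 and Cd4 at 0.573 ± 0.301. Klrb1c at 0.379 ± 0.268, Cd8b1 at 0.351 ± 0.364, Cd8a at 0.230 ± 0.162, Cd3g at 0.224 ± 0.285, Cd3d at 0.215 ± 0.119 and Cd3e at 0.196 ± 0.0775 FPKM completed the order. Every difference between neighbours in that order was smaller than the larger of their SDs. In bulk RNA of a tissue, fewer cells of a type and less RNA per cell cannot be told apart.

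A single member passed the test of AP20187 against vehicle. Nkg7, a protein of the cytotoxic granule membrane, was several-fold higher after the drug in both naive and DMM mice. The receptor chains, the co-receptors CD4 and CD8, Lck and Klrb1c did not pass the test in either comparison. In DMM mice 1 of the 10 members passed, against 23.8% of all genes tested, of which 11.3% of all genes were called higher. In naive mice 1 of the 10 members passed, against 11.2% of all genes tested, with 8.61% called higher. A share of 1 in 10 is near or below these backgrounds, so the count is no result about the members as a set. In naive mice 77.0% of the 2548 called genes were higher. This share was 62.9% of 2465 genes when libraries were scaled by their totals alone and 39.2% of 4147 genes in limma on FPKM. The share that was higher thus depended on the method, as did the number of genes called. Whether the same genes changed direction between methods was not tested.

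Nkg7 was at 0.324, 0.478, 2.32, 2.49 and 8.61 CPM in the DMM mice given vehicle numbered 32, 33, 34, 63 and 64. In the DMM mice given AP20187, numbered 58 to 62, it was at 27.1, 17.01, 16.0, 15.5 and 25.7 CPM. The lowest mouse given the drug was above the highest given vehicle, and mouse 64 was the highest of its group. The labels do not say whether vehicle mice 32 to 34 and mice 63 and 64 were separate cohorts, but 63 and 64 were both above 32 to 34 in 9 of the 10 members, all but Cd3g. The means were 20.3 ± 5.63 and 2.84 ± 3.38 CPM (SD, n = 5 each). edgeR's quasi-likelihood test gave a log2 fold change of 2.83 (SE 0.74, 95% interval 1.28 to 4.38), a 7.11-fold rise, with a Benjamini-Hochberg adjusted p of 0.0118 over all genes. Without vehicle mouse 64 the edgeR log2 fold change was 3.85, and with vehicle mice 32 to 34 only it was 4.28. With mice 63 and 64 as the only DMM vehicle mice, the edgeR log2 fold change was 1.85 with an adjusted p of 0.181. Adjusted p values over all alternatives of this result ran from 0.000261 to that value in edgeR, DESeq2 and limma.

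In the naive mice given vehicle, numbered 1 to 5, Nkg7 was at 0.881, 0.917, 3.04, 3.03 and 0.588 CPM. In the naive mice given AP20187, numbered 1, 3, 4 and 5, it was at 24.6, 12.4, 4.00 and 6.45 CPM. Again no mouse given vehicle reached the lowest mouse given the drug, although mice 3 and 4 of the vehicle group came near it. The means were 11.9 ± 9.20 (SD, n = 4) and 1.69 ± 1.23 CPM (SD, n = 5). The log2 fold change was 2.81 (SE 0.76, 95% interval 1.21 to 4.40), or 7.002-fold, with an edgeR adjusted p of 0.0245. The call was lost without naive AP20187 mouse 1 (log2 fold change 2.17, edgeR adjusted p = 0.106), without AP20187 mouse 3 (0.0575) and without vehicle mouse 1 (0.0661), 2 (0.0664) or 5 (0.0566). It was also lost with the mouse number as a replicate block (2.68, edgeR adjusted p = 0.0605). That fit held naive mice 1, 3, 4 and 5 only, without vehicle mouse 2 or the DMM mice, so the block and the smaller sample cannot be told apart. Over all alternatives the adjusted p from edgeR, DESeq2 or limma ran from 0.00139 to 0.106, and the log2 fold change from 1.97 to 3.13.

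**Figure D1:**
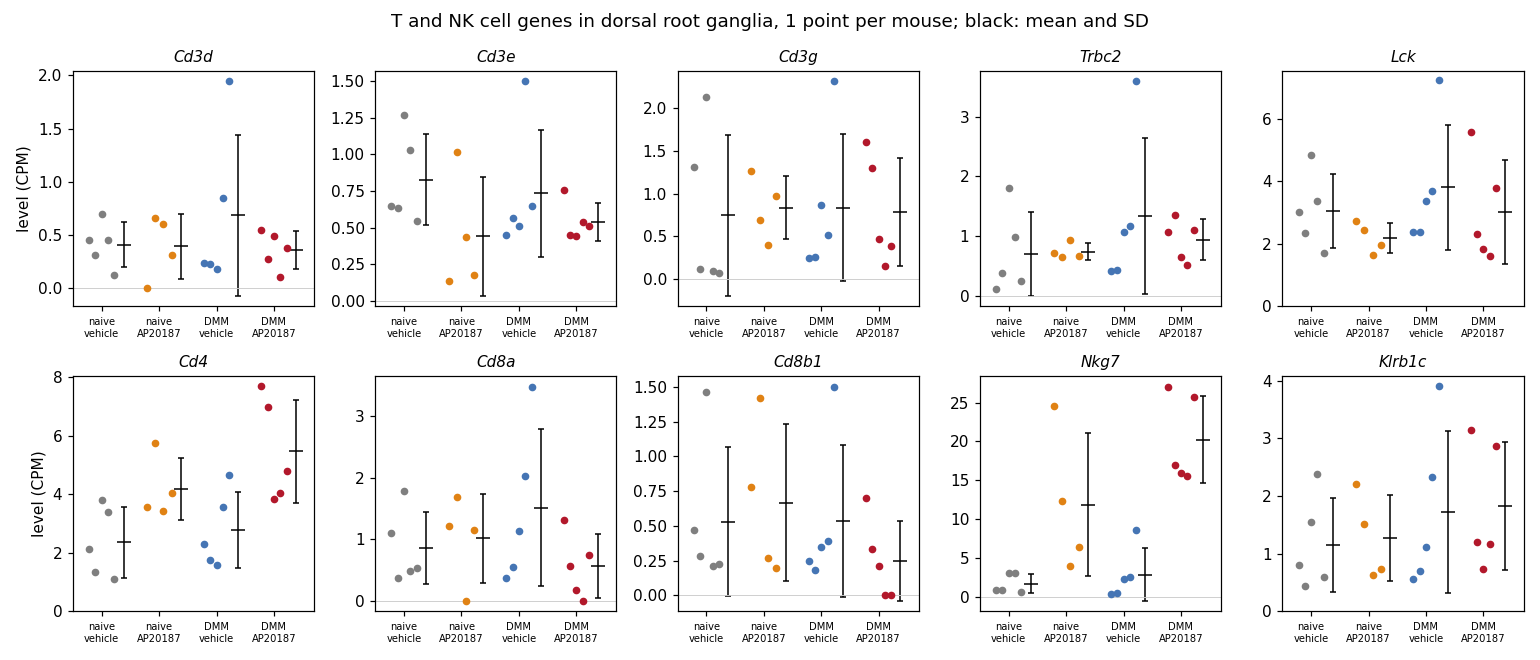
Level of each T and NK cell gene in CPM (vertical axes, linear, with a scale of its own for each gene) in the 4 groups, with 1 point per mouse in order of mouse number and the mean and SD in black. Nkg7 is the gene whose AP20187 points lie above all vehicle points in both DMM and naive mice, at 15.5 CPM or more in DMM mice given the drug against at most 8.61 with vehicle.

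Klrb1c encodes NK1.1, the surface receptor by which NK cells are usually recognized in some mouse strains. With vehicle it was at 0.571, 0.701, 1.12, 2.33 and 3.901 CPM in DMM mice 32, 33, 34, 63 and 64. With AP20187 it was at 3.15, 1.20, 0.733, 1.17 and 2.87 CPM in DMM mice 58 to 62. The groups overlapped along most of their range. The log2 fold change was 0.081 in DMM mice (95% interval -1.16 to 1.32, edgeR adjusted p = 0.940) and 0.14 in naive mice (-1.18 to 1.46, edgeR adjusted p = 0.898). These intervals include changes of more than 2-fold in either direction.

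The difference between Nkg7 and the other members was examined through ratios of FPKM within each mouse, a comparison chosen after the values had been seen and therefore given as a description with no test. In DMM mice the ratio of Nkg7 to Klrb1c was 1.82 to 7.16 with vehicle and 27.9 to 71.7 with AP20187. The log2 ratio differed by 3.49, or 11.2-fold, and all 5 mice given the drug were above all vehicle mice. In naive mice the ratio was 3.17 to 6.93 with vehicle and 20.7 to 36.4 with AP20187, a log2 difference of 2.59. Against Lck, Nkg7 shifted by 4.10 in DMM and 3.25 in naive mice on the log2 scale, and against Cd3e by 4.05 and 4.19, with no overlap between groups in any of them. With each library left out in turn, the shift against Cd3e ran from 3.63 to 4.70 in DMM mice and from 3.29, without AP20187 mouse 1, to 4.77 in naive mice. Within the summed CPM of the 10 members, Nkg7 made up 12.9% ± 4.36 in naive mice given vehicle and 45.3% ± 14.7 with AP20187, and 13.1% ± 7.82 and 60.4% ± 5.80 in DMM mice. The other 9 members together were at 10.6 ± 5.66 and 11.7 ± 3.23 CPM in naive mice and at 13.95 ± 9.30 and 13.8 ± 5.76 CPM in DMM mice, with vehicle and AP20187.

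**Figure D2:**
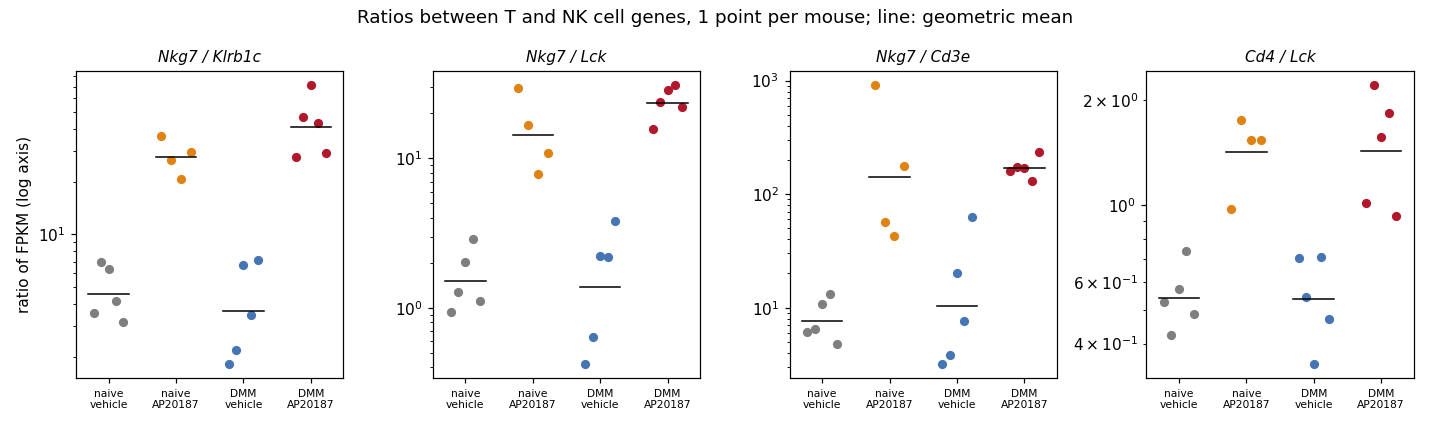
Ratios of FPKM between members within each mouse (vertical axes, log scale) in the 4 groups, with 1 point per mouse and the geometric mean as a line. Nkg7 over Klrb1c lies at 27.9 to 71.7 in DMM mice given AP20187 and at 1.82 to 7.16 with vehicle, and the drug and vehicle points do not overlap in any of the 4 ratios in naive or DMM mice.

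Cd4, the co-receptor of helper T cells, had a higher mean with AP20187 in both comparisons and passed the test in neither. In DMM mice 32, 33, 34, 63 and 64 given vehicle it was at 2.30, 1.76, 1.60, 3.57 and 4.67 CPM, and in mice 58 to 62 given AP20187 at 7.71, 6.98, 3.83, 4.06 and 4.81 CPM. Of the 5 mice given the drug, 3 were above all vehicle mice and 2 lay below vehicle mouse 64. The log2 fold change was 0.98 (SE 0.37, 95% interval 0.21 to 1.75), with an edgeR adjusted p of 0.0592, so it did not pass. It passed with RLE scaling in edgeR (adjusted p = 0.0482), in DESeq2 (0.0228) and in limma on FPKM (0.0414), and, in edgeR, without DMM AP20187 mouse 61 (0.0482), without vehicle mouse 64 (0.0164) and with vehicle mice 32 to 34 only (0.00772). Its adjusted p over all alternatives ran from 0.00772 to 0.669 in these tools.

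In naive mice Cd4 was at 2.14, 1.34, 3.80, 3.40 and 1.12 CPM with vehicle in mice 1 to 5, and at 3.58, 5.74, 3.43 and 4.03 CPM with AP20187 in mice 1, 3, 4 and 5. The groups overlapped, since vehicle mouse 3 was above 2 of the mice given the drug. The log2 fold change was 0.83 (SE 0.38, 95% interval 0.023 to 1.64), with an edgeR adjusted p of 0.162. Relative to Lck within each mouse, Cd4 was higher after AP20187 without overlap: the FPKM ratio was 0.349 to 0.706 with vehicle and 0.932 to 2.21 with the drug in DMM mice, and 0.424 to 0.736 and 0.975 to 1.75 in naive mice. The log2 ratio differed by 1.41 in DMM mice and by 1.39 in naive mice, also chosen with the values in view and given with no test.

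The CD3 chains, which carry the receptor's signal into the cell, gave no call. Cd3e was at 0.447, 0.567, 0.515, 1.496 and 0.648 CPM in the DMM mice given vehicle and at 0.758, 0.453, 0.443, 0.539 and 0.510 CPM in those given AP20187. Apart from vehicle mouse 63 the other 9 values lay within a narrow band. The log2 fold change was -0.44 (95% interval -1.49 to 0.61, edgeR adjusted p = 0.572). In naive mice Cd3e was at 0.645, 0.638, 1.27, 1.03 and 0.548 CPM with vehicle and at 0.138, 1.01, 0.437 and 0.178 CPM with AP20187. There 3 of the 4 mice given the drug were below all vehicle mice and mouse 3 was not, and the log2 fold change of -0.90 did not pass (95% interval -2.04 to 0.24, edgeR adjusted p = 0.276). Without naive AP20187 mouse 3 the Cd3e value was -1.70 and did not pass either. Cd3d had log2 fold changes of -0.93 in DMM and -0.048 in naive mice, and Cd3g of -0.094 and 0.16, with edgeR adjusted p values from 0.461 to 0.976. Without DMM vehicle mouse 64 the DMM value of Cd3d was -0.050. Cd3g ranged from 0.0668 to 2.13 CPM among naive vehicle mice alone, and Cd3d was at 0 counts in naive AP20187 mouse 1, which allows a level of up to the floor.

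Trbc2, the constant part of the receptor's β chain, was at 1.34 ± 1.31 CPM with vehicle and 0.941 ± 0.349 with AP20187 in DMM mice, and at 0.707 ± 0.703 and 0.739 ± 0.138 in naive mice. The log2 fold changes were -0.50 and 0.061, with edgeR adjusted p values of 0.623 and 0.962. Lck was at 3.81 ± 2.00 and 3.02 ± 1.65 CPM in DMM mice and at 3.05 ± 1.18 and 2.19 ± 0.480 CPM in naive mice, with vehicle and AP20187. Its log2 fold changes were -0.34 (95% interval -1.13 to 0.46) and -0.48 (-1.33 to 0.38), neither of which passed in edgeR (adjusted p = 0.567 and 0.444).

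Both chains of the cytotoxic co-receptor CD8 varied widely. Cd8a was at 0.370, 0.552, 1.13, 2.02 and 3.47 CPM in the DMM mice given vehicle and at 1.32, 0.570, 0.168, 0 and 0.747 CPM in those given AP20187. The highest 2 values were vehicle mice 63 and 64 and the lowest 2 were drug-treated mice 60 and 61, with overlap between. The log2 fold change was -1.43, with a 95% interval from -3.49 to 0.64 and an edgeR adjusted p of 0.315. In naive mice it was 0.24 (-1.90 to 2.39, edgeR adjusted p = 0.893), and naive AP20187 mouse 4 was at 0. Cd8b1 had log2 fold changes of -1.09 in DMM and 0.32 in naive mice, with edgeR adjusted p values of 0.475 and 0.860. Without DMM AP20187 mouse 58 the DMM values were -1.93 for Cd8b1 and -2.02 for Cd8a, and without vehicle mouse 64 that of Cd8b1 was -0.22, none of them past the test. It was at 0 counts in DMM AP20187 mice 61 and 62. The intervals for Cd8a include changes of several-fold, and whether its low counts set their width was not tested.

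Over the 10 members, 3 log2 fold changes were above 0 and 7 below in DMM mice, with a median of -0.39, where all genes tested had a median of -0.096. In naive mice 7 were above 0 and 3 below, with a median of 0.15 and -0.066 over all genes. The signs of Trbc2, Cd3g, Cd8a and Cd8b1 therefore differed between the comparisons, none of them past the test. With DMM vehicle mice 32 to 34 only, the DMM values of Cd3d, Cd3e, Cd3g, Trbc2 and Lck were above 0.

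**Figure D3:**
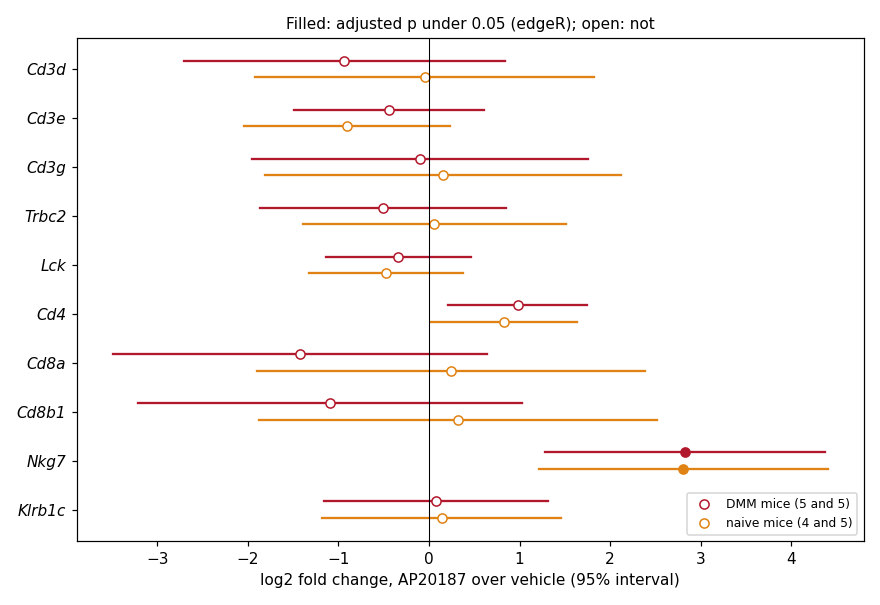
Log2 fold change of each member, AP20187 over vehicle (horizontal axis), in DMM mice (red) and naive mice (orange), with 95% intervals from the edgeR fit. Filled points passed an adjusted p of 0.05: Nkg7 at 2.83 and 2.81 is filled in both, and the interval of every other member is drawn with an open point.

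Surgery alone moved no member past the test. In mice given vehicle, DMM against naive, 0 of 10 members passed in edgeR at the adjusted threshold and 0 at an unadjusted p under 0.05, and DESeq2 and limma also called 0 members. Over all genes edgeR called 0%, with 377 genes at an unadjusted p under 0.05, and DESeq2 called 1 gene. The members' median log2 difference was 0.45, against 0.027 over all genes, and 9 of 10 were above 0. Nkg7 differed by 0.75 (95% interval -0.72 to 2.22), Trbc2 by 0.91 (-0.46 to 2.28), Klrb1c by 0.58 (-0.67 to 1.82) and Cd3e by -0.17 (-1.22 to 0.88). These values turned on vehicle mice 63 and 64, which had the highest values of their group for all 10 members between them: with DMM mice 32 to 34 only, Nkg7 was at -0.70, Klrb1c at -0.53 and Trbc2 at -0.14.

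In mice given AP20187, DMM against naive, 0 of 10 members passed in edgeR, 0 at an unadjusted p under 0.05, and 0 in DESeq2 and limma, where edgeR called 0.702% of all genes. Of those genes 37.5% were higher in DMM mice, or 59.0% with libraries scaled by their totals alone, 82.6% in limma on FPKM and 13.5% with only the 2 groups in the fit. Nkg7 was 0.77 higher on the log2 scale in DMM mice (95% interval -0.78 to 2.32, edgeR adjusted p = 0.630), Klrb1c 0.52 higher (-0.81 to 1.85) and Cd8b1 -1.40 (-3.63 to 0.82). The median over members was 0.32, and -0.0093 over all genes. The difference between the drug's effect in DMM and in naive mice was tested as an interaction, which called 0 members in edgeR, 0 at an unadjusted p under 0.05 and 0 in DESeq2 and limma, and 0.114% of all genes in edgeR. For Nkg7 it was 0.023, with a 95% interval of -2.15 to 2.20 that includes differences of 4-fold either way. For Cd4 it was 0.15 (-0.96 to 1.26), for Cd3e 0.46 (-1.08 to 2.00) and for Cd8a -1.67 (-4.63 to 1.28).

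Other genes of the T cell receptor pathway were taken from a list of 30, of which 28 were tested. In DMM mice 2 were higher and 3 lower, with a median log2 fold change of -0.45. These 5 of 28 are below the 23.8% called over all genes, whose median was -0.096, so the count is no result about the list. Ubash3a, which restrains receptor signaling, rose from 2.21 ± 1.95 to 14.2 ± 7.05 CPM (SD, n = 5 each; log2 fold change 2.68). Lcp2, the adaptor SLP-76 that also serves myeloid cells and platelets, rose from 19.9 ± 14.9 to 67.4 ± 14.6 CPM (1.76). Lef1, a transcription factor of T cell development, fell from 3.15 ± 1.14 to 1.24 ± 0.323 CPM (-1.34), and the kinase gene Fyn also fell. Thy1, a surface protein abundant on neurons as well as T cells, fell from 369 ± 96.7 to 159 ± 77.2 CPM (-1.22). The edgeR adjusted p values of Ubash3a, Lcp2, Lef1 and Thy1 were 0.00440, 0.00869, 0.00164 and 0.0205. With vehicle mice 63 and 64 only, Ubash3a, Lcp2 and Thy1 did not pass (edgeR adjusted p = 0.0611, 0.167 and 0.249), and Thy1 also did not pass without DMM AP20187 mouse 58 (0.0520). Without vehicle mouse 64 the log2 fold change of Ubash3a was 3.27.

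In naive mice 3 of the 28 passed, all of them higher, with a median over the 28 of -0.17. Over all genes 8.61% were called higher, 11.2% were called in either direction and the median was -0.066, so this count too is near the background. Ubash3a rose from 0.959 ± 0.253 (SD, n = 5) to 9.30 ± 4.98 CPM (SD, n = 4; log2 fold change 3.28, edgeR adjusted p = 0.00319) and Lcp2 from 11.3 ± 3.82 to 49.4 ± 22.9 CPM (2.13, 0.00692). Lef1 rose from 2.26 ± 0.193 to 4.37 ± 0.629 CPM (0.95, edgeR adjusted p = 0.0242). This call was lost without naive AP20187 mouse 3 (edgeR adjusted p = 0.0641) and without vehicle mouse 1 (0.0578) or 2 (0.0623). It was also lost in edgeR with library totals in place of TMM (0.0512) and with the mouse number as a replicate block in naive mice 1, 3, 4 and 5 only (0.0541). The drug's effect on Lef1 differed between DMM and naive mice by -2.29 on the log2 scale (SE 0.36, edgeR interaction, adjusted p = 0.00888). Among mice given AP20187, Lef1 was 1.82 lower on the log2 scale in DMM than in naive mice (edgeR adjusted p = 0.00213), and Fyn fell by 0.73 (0.0219), a call lost without any 1 of DMM AP20187 mice 58, 59, 60 and 62 or naive AP20187 mice 4 and 5, or with only those groups in the fit (0.139). The receptor genes nearest to the members gave no call: Trac, the α chain's constant part, had log2 fold changes of -0.33 and 0.59 in DMM and naive mice, Trbc1 -0.84 and 0.45, and Zap70, the kinase that follows Lck, -1.01 and -0.087. Of 6 γδ T cell genes 2 were in the table and tested, Trdc and Sox13, and neither passed.

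Of 32 NK cell and cytotoxic genes 31 were tested, and a single one passed in each drug comparison, below the 23.8% in DMM and 11.2% in naive mice called over all genes. This was Il18rap, a chain of the receptor for interleukin 18, which rose from 16.4 ± 13.6 to 85.2 ± 27.3 CPM in DMM mice (log2 fold change 2.37, edgeR adjusted p = 0.00511) and from 11.0 ± 6.20 to 49.5 ± 20.8 CPM in naive mice (2.17, edgeR adjusted p = 0.0175). The DMM call was lost with vehicle mice 63 and 64 only (edgeR adjusted p = 0.0890), and the naive call without AP20187 mouse 1 (0.0512) or 3 (0.0614) or vehicle mouse 2 (0.0510). The list's median log2 fold change was -0.26 in DMM and 0.20 in naive mice. Genes that define NK cells were measured at low levels and did not move past the test. Ncr1, the NKp46 receptor, was at 0.757 CPM with vehicle and 0.442 with AP20187 in DMM mice, and at 0.476 and 0.932 in naive mice. The granule protease genes Gzma and Gzmb, the pore protein gene Prf1, the receptor gene Klrd1 and the transcription factor gene Eomes likewise gave no call. Ncr1, Klrd1 and Gzma had counts in every library, while Gzmb was at 0 in 3 libraries and Prf1 and Eomes in 1 each. For these genes other than Ncr1 the drug comparisons gave log2 fold changes from -0.92 to 0.11 in DMM mice and from -1.37 to 1.53 in naive mice.

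Among 10 genes of lymphocyte homing, Ccr7, the receptor that leads lymphocytes and dendritic cells into lymph nodes, fell by 1.92 on the log2 scale in DMM mice (edgeR adjusted p = 0.0383). That call was lost without any 1 of DMM AP20187 mice 59 to 62 or DMM vehicle mice 34, 63 and 64, with adjusted p up to 0.128 in edgeR. Without vehicle mouse 64, which gave that highest value, the log2 fold change was -1.22, and with DMM vehicle mice 32 to 34 only it was -0.85 (edgeR adjusted p = 0.326). The gene also did not pass without the filter on low counts (edgeR adjusted p = 0.0600), with only the DMM groups in the fit (0.0624) or in limma on FPKM (0.0695). The list's medians were 0.50 in DMM and 0.60 in naive mice, where those of all genes were -0.096 and -0.066.

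Of the 6 precursor genes 5 were tested, and the recombinase genes Rag1 and Rag2, which are used by developing B cells as well as T cells, fell in both comparisons. Rag1 was at 6.59 ± 4.42 CPM with vehicle and 0.0583 ± 0.0735 with AP20187 in DMM mice, and at 4.55 ± 2.12 and 0.0337 ± 0.0389 in naive mice (edgeR adjusted p = 0.000117 and 0.000540). Its DMM log2 fold change was -6.77, and -7.82 without AP20187 mouse 61. In DMM mice 4 of the 5 genes passed and in naive mice 2, where 23.8% and 11.2% of all genes were called, and a list of 5 genes is described only by these counts. Rag2 had 0 counts in all 9 libraries from mice given the drug. It ranged from 0 to 2.21 CPM in DMM mice given vehicle, of which 1 was at 0 like the mice given the drug, and from 0.249 to 1.44 CPM in naive mice given vehicle. Against the floor of 3 counts per library it was at least 16.6-fold lower in DMM mice and at least 14.2-fold lower in naive mice (edgeR adjusted p = 0.00441 and 0.0138), calls that limma on FPKM did not make (0.0526 and 0.0882). Without DMM vehicle mouse 64, the highest, the DMM bound was 8.82-fold. Notch1, a receptor that directs T cell fate and acts in many other cells, rose by 1.45 in DMM mice (edgeR adjusted p = 0.00173), and Cd1d1, which presents lipids to NKT cells, fell by 0.64 (edgeR adjusted p = 0.0283). With vehicle mice 63 and 64 only, Notch1 was at an edgeR adjusted p of 0.0711 and Cd1d1 at 0.102, and Cd1d1 also did not pass without DMM AP20187 mouse 58 (0.0808) or 59 (0.0543) or vehicle mouse 64 (0.05002), with vehicle mice 32 to 34 only (0.0778) or with only the DMM groups in the fit (0.0511).

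Of 13 tested genes for lymphocyte cytokines and their receptors, 4 passed in each comparison, all of them higher, with medians of 0.63 in DMM and 0.65 in naive mice. Over all genes 23.8% were called in either direction in DMM mice and 11.2% in naive mice, and 11.3% and 8.61% were called higher. The medians over all genes were -0.096 and -0.066. In DMM mice 4 of 13 is near the share called in either direction, so that count is no result about the list. Il4ra, the interleukin 4 receptor chain present on most blood cells, rose from 39.6 ± 4.86 to 180 ± 42.9 CPM in DMM mice and from 44.0 ± 5.496 to 122 ± 27.3 CPM in naive mice (log2 fold changes 2.18 and 1.47, edgeR adjusted p = 2.11e-06 and 0.000128). Il18r1, the partner of Il18rap, rose by 2.66 and 2.21 (edgeR adjusted p = 0.00173 and 0.0107). Il2rg, the shared chain of several interleukin receptors, rose by 1.67 and 1.82 (edgeR adjusted p = 0.0181 and 0.0242). Its DMM call was lost with vehicle mice 63 and 64 only (edgeR adjusted p = 0.269) and its naive call without AP20187 mouse 1 or 3 or vehicle mouse 1, 2 or 5 (up to 0.0813). Il15ra rose by 0.75 in DMM mice (edgeR adjusted p = 0.00523), and not with vehicle mice 63 and 64 only (0.193). Il10, an inhibitory cytokine, had 0 counts in all naive vehicle mice and 0.238 ± 0.206 CPM (SD, n = 4) with AP20187. Of the naive mice given AP20187, 1 was at 0 like the vehicle mice. The mean with AP20187 was at least 5.34-fold higher against the floor of 3 counts per library (edgeR adjusted p = 0.0373). That call was lost without any 1 of naive AP20187 mice 1 and 3 and vehicle mice 1, 2, 3, 4 and 5 (edgeR adjusted p up to 0.0942). It was also lost without the filter on low counts in edgeR (0.0594) and in limma on FPKM (0.05004).

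Markers of some other blood cells rose, like Nkg7, and those of others fell. The 10 neutrophil and precursor genes, such as S100a8 and Ngp, summed to 410 to 8099 CPM in DMM mice given vehicle and 16761 to 28939 with AP20187, and to 880 to 2367 and 8071 to 27566 CPM in naive mice. Of the 10, 7 were higher in DMM and 8 in naive mice, with median log2 fold changes of 3.01 and 3.65, and their sums, like Nkg7, did not overlap between drug and vehicle. The 7 general leukocyte genes, with Ptprc (CD45) among them, summed to 400 to 1567 and 1954 to 3599 CPM in DMM mice and to 479 to 706 and 1085 to 2306 CPM in naive mice, and 5 of 7 were higher in each. Of the 10 macrophage genes 1 was higher in DMM and 3 in naive mice. Over all genes, 11.3% were called higher and 12.4% lower in DMM mice, and 8.61% and 2.57% in naive mice, so that 1 of 10 is near the background. B cell genes went the other way: all 8 fell in DMM and 7 of 8 in naive mice, with medians of -3.92 and -3.35. Their sums, to which genes also active in other cells contribute, were 171 to 226 and 48.8 to 115 CPM in DMM mice and 183 to 226 and 72.1 to 152 CPM in naive mice. In DMM mice 5 of 7 erythroid genes and 3 of 6 myelinating Schwann cell genes also fell, while 1 of 6 satellite glia genes was called lower in each comparison. Of 6 genes each for type 1 conventional and plasmacytoid dendritic cells, 2 and 1 were called in DMM mice, and 1 plasmacytoid gene in naive mice. Sensory neuron genes, which mark the labelled tissue, summed to 8354 ± 1877 CPM with vehicle and 3756 ± 1135 with AP20187 in DMM mice, where 4 of 5 mice given the drug were below all vehicle mice and 5 of 10 genes fell. In naive mice they summed to 8931 ± 2042 and 5474 ± 2399 CPM, with overlap between the groups. The part of these other cell types in the Nkg7, Ubash3a, Lcp2, Il18rap, Rag1 and Rag2 results was not tested.

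**Figure D4:**
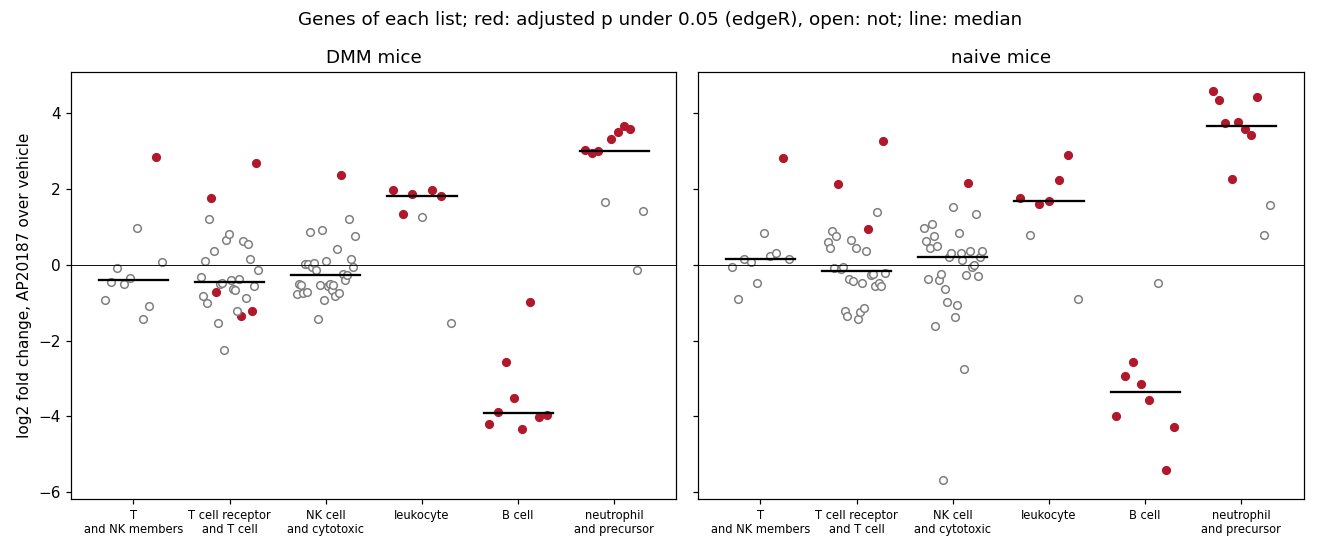
Log2 fold change, AP20187 over vehicle (vertical axis), of each gene in 6 lists in DMM mice (left) and naive mice (right), with the median as a line. Red points passed an adjusted p of 0.05 in edgeR: 1 of the 10 members, 1 of the 31 NK cell and cytotoxic genes, and, in DMM mice, 7 of the 10 neutrophil and precursor genes above 0 and all 8 B cell genes below it.

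Single mice carried much of the spread among the members. Naive vehicle mouse 3 was the highest of its group for 9 of the 10 members, DMM vehicle mouse 64 for 9 and DMM AP20187 mouse 58 for 9. DMM vehicle mouse 64 was also the highest of its group in the sums of neutrophil (8099 CPM), leukocyte (1567), macrophage (648) and erythroid genes (26681), and the lowest in sensory neuron genes (5243). As a description over the 19 mice, which share these differences between libraries, the 36 pairs of members without Nkg7 had a median Spearman rho of 0.50, and the 9 pairs with Nkg7 one of 0.20 (range -0.20 to 0.86). Within the 10 vehicle mice the medians were 0.69 and 0.71.

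The genes whose log2 CPM ordered the 19 mice most like Nkg7, among 16816 named genes, were Dbf4, Clec12a, Ikbke, Top2a and Adgrg3, each with a Spearman rho of 0.98, and of 0.90 to 0.98 within the 10 vehicle mice. For Klrb1c they included Rfx2, Tcf3, Fam117a and Haao, at 0.91 to 0.95. For Cd4 they were Pde9a, Sypl, Tlr8, Mier1 and Rpsa-ps10, at 0.95 to 0.96. Cd3e was ordered most like Ccr7 (0.85), Adgre4, Per3, H2-Q10 and Hbb-bs, and Cd8a most like Klrd1 (0.83), Igkj4, Cxcr3, Kmo and Otulinl. None of the 5 lists of similar genes held another member.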

How the data were processed

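RNA of dorsal root ganglia was sequenced from 19 mice in 4 groups, assigned by the labels, as stranded poly(A) libraries. The submitters' processing notes name cutadapt, HISAT2, StringTie and build GRCm39. The counting step and the annotation are not given in the sources used here. The table the authors deposited gives whole-number counts and FPKM for each gene, and no batch is given. No 2 libraries had identical values.

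Tests on counts used edgeR 4.0.16 under R 4.3.3 (quasi-likelihood F test, TMM, filterByExpr with a minimum count of 10) in 1 model of the 4 groups, with 15 residual degrees of freedom and Benjamini-Hochberg adjustment over 22778 genes at a threshold of 0.05. CPM use TMM library sizes. The model was tested on simulated data. All tests were two-sided. Each mouse is 1 library, so p-values measure the spread between mice. Ratios of FPKM were described without a test, since they were chosen with their values in view. Alternatives were RLE factors, library totals, no filter, DESeq2 1.42.0, limma 3.58.1 on log2(FPKM + 1), fits of fewer samples and leaving out each library. Named genes were the 10 members, up to 4 genes per list and comparison with the largest change among those past the threshold, and the 5 genes most like each of 5 members. Fyn, the receptor and NK genes without a call, and genes given as examples of a marker list were named outside that rule, with values in view. The members and lists were chosen with earlier results of these data known. The lists of 10 other cell types included dendritic cells, satellite glia and myelinating Schwann cells. Some genes that the rule names are not reported here.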

Additional observations from a re-analysis of the deposited data

Results flagged for a closer look

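In 6 of 40 sets of values (10 members in 4 groups), the highest mouse stood apart from the others by more than Dixon's 95% critical value, in 5 members. For independent sets of normally distributed values, chance does this in about 1 in 20. The sets here share mice, so the count of 6 cannot be set against that rate. DMM vehicle mouse 64 stood apart in Nkg7 (8.61 CPM, next mouse 2.49), Lck (7.24, next 3.67), Trbc2 (3.59, next 1.16) and Cd8b1 (1.501, next 0.393). DMM vehicle mouse 63 stood apart in Cd3e (1.496 CPM, next 0.648), and naive vehicle mouse 3 in Cd8b1 (1.47 CPM, next 0.472). No mouse given AP20187 stood apart in this way.

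For Lef1, the AP20187 effect in DMM mice minus that in naive mice was -2.29 on the log2 scale, which passed the edgeR interaction test (adjusted p = 0.00888).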

How the results depend on the processing

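Of 71 values for single genes and ratios, 31 kept direction and side of the threshold, or without a test stayed within 1 SD, in every alternative run. Of 1150 recomputed values, 57 changed sign, none of them past the threshold. The count of called members in DMM was 2 (Cd4 and Nkg7) with RLE, DESeq2, limma and DMM vehicle mice 32 to 34 only, 0 with mice 63 and 64 only, and 1 to 2 with a library left out. In naive mice it was 0 to 1 with a library left out. The labels do not say whether the mouse numbers shared by both naive groups pair the mice. Of the 4 same-number pairs, 2 correlated above 0.1 (range -0.082 to 0.30), and 1 matched its own number best. With 4 pairs these values cannot settle whether the mice were paired. The replicate block, fitted to naive mice 1, 3, 4 and 5 only, called 0 members (Nkg7 2.68, edgeR adjusted p = 0.0605) and put Cd8a at -0.42.

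Genes called in DMM were 8450 with vehicle mice 32 to 34 only, 1156 with 63 and 64 only, and 3212 to 7677 with a library left out. In naive mice they were 4367 in DESeq2, 4147 in limma and 994 to 3452. DMM against naive gave, with vehicle, 1 in DESeq2 and 541 with mice 63 and 64 only, and, with AP20187, 73 without the filter, 1143 in DESeq2, 1220 in limma and 43 to 269 with a library left out. The interaction gave 13 without the filter, 237 in DESeq2, 56 in limma, 90 with mice 63 and 64 only and 12 to 57.

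Log2 fold changes that changed sign were, in DMM with vehicle mice 32 to 34 only, Cd3d 0.75, Cd3e 0.084, Cd3g 0.79, Trbc2 0.55 and Lck 0.15, and Klrb1c -0.77 with 63 and 64 only. In naive mice Trbc2 was -0.027 with library totals and Klrb1c -0.012 in limma. DMM against naive with vehicle, mice 32 to 34 gave Trbc2 -0.14, Nkg7 -0.70 and Klrb1c -0.53, and mice 63 and 64 Cd3e 0.37. The interaction with 63 and 64 only was -0.098 for Cd3e, -0.44 for Cd4 and -0.998 for Nkg7. With a library left out, DMM values ran from -0.21 to 0.63 for Klrb1c, -0.53 to 0.74 for Cd3g, -0.73 to 0.29 for Trbc2 and -0.68 to 0.031 for Lck. Naive values ran from -0.39 to 0.36 for Cd3d, -0.12 to 1.06 for Cd3g, -0.26 to 0.59 for Klrb1c, -0.11 to 0.70 for Cd8a, -0.36 to 1.16 for Cd8b1 and -0.21 to 0.78 for Trbc2. DMM against naive with vehicle ran from -0.27 to 1.07 for Nkg7 and -0.60 to 0.038 for Cd3e, and the interaction from -0.091 to 0.42 for Cd4 and -0.30 to 1.04 for Nkg7. Without a change of sign, DMM values ran from -1.18 to -0.050 for Cd3d, -2.02 to -0.86 for Cd8a and -1.93 to -0.22 for Cd8b1, and naive Cd3e from -1.70 to -0.61. DMM against naive ran from 0.12 to 1.63 for Trbc2 with vehicle, and with AP20187 from 0.48 to 1.41 for Nkg7 and -2.25 to -0.67 for Cd8b1. The interaction ran from 0.16 to 1.28 for Cd3e and -2.27 to -1.11 for Cd8a. The cause of these changes was not tested, beyond the smaller number of mice. With vehicle mice 32 to 34 only, DMM log2 fold changes were 3.702 for Ubash3a, 2.52 for Lcp2, 3.37 for Il18rap, 3.45 for Il18r1 and 2.46 for Il2rg, and with 63 and 64 only 1.86, 1.07, 1.57, 1.96 and 0.97. The ratio differences kept their direction with each library left out. The fold of Rag2 or Il10 against the floor moved by over 1.5 times only for Rag2 in DMM without vehicle mouse 64 (8.82). The part of low counts in the width of the intervals was not tested.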
